A study of Mus musculus with 6 samples.

Results

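The MHC class II genes followed here were H2-Aa, H2-Ab1, H2-Eb1, H2-DMa, H2-DMb1, Cd74, Ciita and Ctss. They were chosen by gene symbol from the class II pathway, with Ensembl gene IDs matched to the mouse GRCm38 annotation, and not by their values. All 8 were found among the 54532 gene IDs of the RNAseq data, and all 8 were expressed above the minimum required for testing, as were 15069 genes in all.

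NeuT/ATTAC mice were given an anti-PD-1 mAb or an isotype-matched IgG, and 3 mammary tumor samples of each group were compared. The aim was to ask whether PD-1 blockade altered tumor gene expression in a fibrotic mammary gland. Every mouse, controls included, carried the MMTV-NeuT transgene, in which a mouse mammary tumor virus promoter drives Erbb2 in the mammary epithelium, and the FAT-ATTAC transgene, whose activation by AP20187 ablates adipose tissue. Fibrosis was induced in both groups with AP20187 at 0.4 mg/kg, starting at 6 weeks of age, followed by 100 μg of anti-PD-1 or IgG 2 times per week from 8 weeks of age. The mice were FVB after a cross from C57BL/6. The labels list 3 replicates per group and do not say whether each is a separate tumor, and each is called a tumor here. A figure legend of the study speaks of pooled RNA, so p-values measure only the spread between these samples, which may be technical. The tumors were epithelial by their transcripts, with Epcam (an epithelial adhesion protein) between 690 and 1150 FPKM and the adipocyte hormone Adipoq at no more than 1.19 FPKM. Transcripts of skeletal muscle actin, Acta1, lay between 37.7 and 50.1 FPKM in IgG replicate 2 and anti-PD-1 replicates 1 and 2, and at no more than 1.71 FPKM in the other tumors.

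MHC class II molecules carry peptides from ingested proteins to the surface of dendritic cells, macrophages and B cells, where CD4+ T cells read them. H2-Aa and H2-Ab1 encode the α and β chains of the I-A molecule and H2-Eb1 the β chain of I-E. Cd74, the invariant chain, escorts the new dimer to the endosome, where the protease cathepsin S (Ctss) trims it, and H2-DM, made of H2-DMa and H2-DMb1, exchanges the remaining fragment for peptide. Ciita is the coactivator that switches these genes on and is itself induced by interferon-γ. FVB mice carry the q haplotype of the H2 locus, which is known for lacking surface I-E.

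Ciita acts through factors bound to the X box and the Y box, a pair of conserved motifs just upstream of class II genes. RefSeq promoters (GRCm38.p6) were at hand for 5 of the 8 genes (H2-Aa, H2-Eb1, H2-DMa, H2-DMb1 and Ctss) and for 4 other class II genes. The letters searched were AACNGAT for the X box core and GATTGG, a reversed CCAAT box, for the Y box core, on either strand and with no shared bases. The windows below run from -140 to -31 relative to the RefSeq start site and are shown because they carry the elements through which Ciita is known to act. Capitals mark the matches on the gene's own strand.
H2-Aa: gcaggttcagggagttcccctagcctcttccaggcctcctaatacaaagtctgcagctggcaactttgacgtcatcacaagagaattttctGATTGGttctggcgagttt
H2-Eb1: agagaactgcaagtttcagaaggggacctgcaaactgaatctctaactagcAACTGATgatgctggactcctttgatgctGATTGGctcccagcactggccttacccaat
H2-Eb2: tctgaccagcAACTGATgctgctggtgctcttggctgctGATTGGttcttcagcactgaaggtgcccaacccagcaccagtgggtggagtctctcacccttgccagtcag
H2-DMb2: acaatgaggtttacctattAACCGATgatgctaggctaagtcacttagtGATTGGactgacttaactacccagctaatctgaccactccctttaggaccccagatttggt
H2-Ob: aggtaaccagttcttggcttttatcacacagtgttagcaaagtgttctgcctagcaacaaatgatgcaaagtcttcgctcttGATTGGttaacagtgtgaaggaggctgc
They lie at chr17:34287854-34287963, minus strand, for H2-Aa, at chr17:34305727-34305836, plus strand, for H2-Eb1, at chr17:34325535-34325644, plus strand, for H2-Eb2, at chr17:34145109-34145218, plus strand, for H2-DMb2, and at chr17:34238765-34238874, plus strand, for H2-Ob. In H2-Eb1 and H2-Eb2 the X box core began 29 bases before the Y box core, and in H2-DMb1 and H2-DMb2 it began 30 bases before it. H2-Aa held the Y box core at -49, H2-Ob at -58 and H2-Oa at -44, with no match to the X box letters. H2-Eb1 also held the Y box core on the reverse strand, at -35, which is left in lower case. Of the pair of H2-DMa promoters 1 held the Y box core, at -199, and in Ctss the X box core was found at -207. Among all 32851 RefSeq promoters, 6.94% held the X box core, 16.1% the Y box core, and 7 (0.0213%) held both on the gene's strand with their starts 24 to 36 bases apart, a distance chosen after these matches were seen. The 7 were H2-Eb1, H2-Eb2, H2-DMb1, H2-DMb2, BC051142, Cdv3 and Gm52919.

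For each of the 8 class II genes the levels in anti-PD-1 and IgG tumors overlapped. Of the 8 genes, 4 (H2-Ab1, H2-DMa, Cd74 and Ctss) had a higher and 4 (H2-Aa, H2-Eb1, H2-DMb1 and Ciita) a lower mean log2(FPKM + 1) in anti-PD-1 tumors. The log2 fold changes ran from -0.16 for Ciita to 0.36 for H2-Ab1, with a median of -0.01, against 0.01 for all genes tested. That median lay between -0.13 (without IgG replicate 3) and 0.29 (without IgG replicate 2) when single tumors were left out. None of the 8 had an unadjusted p under 0.05 in limma, where 12.3% of all genes tested did, and none had groups that did not overlap, where 18.1% of all genes did. No gene of the 15069 had an adjusted p under 0.05 (0%) in limma, while 1848 had an unadjusted p under 0.05. With limma's voom on reads recovered from the FPKM values the counts were 0 and 1841. FPKM is the number of fragments counted on a gene, scaled by the length of its exons and by the depth of the library, so levels of different genes can be set side by side. Values are given below in the order of replicates 1, 2 and 3 of each group, and fold changes are on the log2(FPKM + 1) scale with their standard error (SE).

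**Figure D1:**
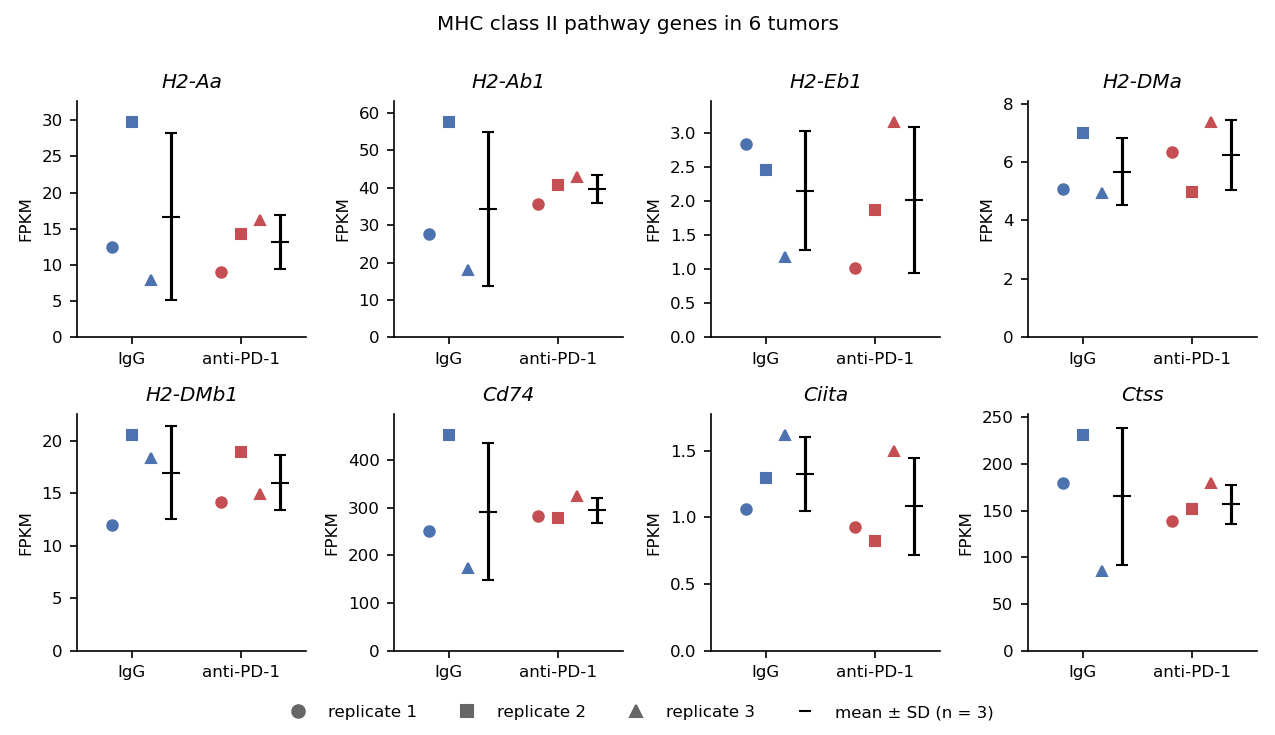
FPKM (vertical axes, from 0) of the 8 class II genes in each IgG (blue) and anti-PD-1 (red) tumor, with the replicate shown by the symbol and the mean ± SD (n = 3) of each group as a bar. IgG replicate 2 is the highest tumor for H2-Aa, H2-Ab1, H2-DMb1, Cd74 and Ctss, and the 2 groups overlap in every panel.

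The I-A chains differed more between IgG tumors than between the groups. H2-Ab1 (ENSMUSG00000073421, chromosome 17 from 34257689 to 34269419, plus strand), the β chain, had 27.6, 57.5 and 18.0 FPKM in IgG against 35.6, 40.6 and 42.9 FPKM after anti-PD-1. The anti-PD-1 tumors lay close together, inside the wide range of the IgG tumors. The mean was 39.7 ± 3.74 (SD, n = 3) FPKM in anti-PD-1 and 34.4 ± 20.6 (SD, n = 3) FPKM in IgG tumors. The log2 fold change of H2-Ab1 was 0.36 (SE 0.38, 95% interval -0.53 to 1.26, limma adjusted p = 0.723), and a two-sided exact permutation test gave p = 0.6. IgG replicates 2 and 3 decided this value. Without IgG replicate 3 it was -0.0047 (limma adjusted p = 0.996). Without IgG replicate 2 the 2 other IgG tumors lay below every anti-PD-1 tumor, with 0.80 as the fold change on the log2 scale (unadjusted p = 0.0122, limma adjusted p = 0.761).

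H2-Aa (ENSMUSG00000036594, chromosome 17 from 34282744 to 34287823, minus strand), the α chain, had 12.5, 29.7 and 7.91 FPKM in IgG against 9.09, 14.3 and 16.3 FPKM after anti-PD-1. IgG replicate 2 stood above all other tumors and IgG replicate 3 below them. The group means were 16.7 ± 11.5 (SD, n = 3) FPKM in IgG and 13.2 ± 3.71 (SD, n = 3) FPKM in anti-PD-1 tumors, or -0.15 as a log2 fold change (SE 0.45, limma adjusted p = 0.911). The 95% interval ran from -1.2 to 0.90, and so reached further down than up.

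Levels of the I-A chains relative to each other were ordered by group. The ratio of H2-Aa to H2-Ab1 FPKM was 0.452, 0.517 and 0.439 in IgG against 0.255, 0.352 and 0.379 after anti-PD-1. Every anti-PD-1 tumor thus had less H2-Aa per H2-Ab1 than any IgG tumor (two-sided exact permutation test, p = 0.1, the smallest that 3 tumors against 3 can give). It was the only 1 of the 28 ratios between the 8 genes whose groups did not overlap (3.57%, against 18.1% of single genes), and it was singled out after the ratios were seen.

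**Figure D2:**
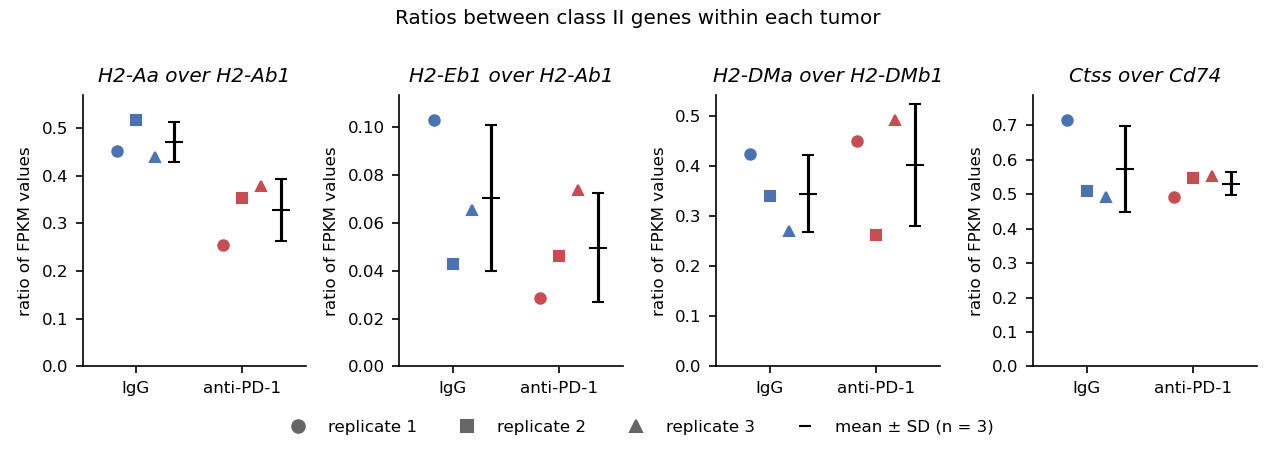
Ratios of FPKM values (vertical axes, from 0) between pairs of class II genes within each IgG (blue) and anti-PD-1 (red) tumor, with the mean ± SD (n = 3) of each group as a bar. The ratio of H2-Aa to H2-Ab1 runs from 0.439 to 0.517 in IgG and from 0.255 to 0.379 in anti-PD-1 tumors, while the groups overlap in the other 3 panels.

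H2-Eb1 (ENSMUSG00000060586, chromosome 17 from 34305867 to 34316674, plus strand), the I-E β chain, was low. It had 2.84, 2.46 and 1.18 FPKM in IgG against 1.02, 1.88 and 3.16 FPKM after anti-PD-1, and the highest and the lowest tumor were both anti-PD-1 tumors. Between 31 and 89 reads stood behind these values, so counting error alone came to 18.0% of the lowest. The log2 fold change was -0.08 (SE 0.33, 95% interval -0.86 to 0.70, limma adjusted p = 0.940), and with a pseudocount of 0.1 it was -0.13. Relative to H2-Ab1, H2-Eb1 amounted to between 0.0287 and 0.103 of its FPKM. The antisense gene Gm20513 overlaps H2-Eb1, and whether reads were counted by strand is not given in the sources used here.

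The invariant chain was the most abundant of the 8 genes. Cd74 (ENSMUSG00000024610, chromosome 18) had 251, 452 and 173 FPKM in IgG against 283, 278 and 325 FPKM after anti-PD-1. IgG tumors differed by up to 2.61-fold and anti-PD-1 tumors by up to 1.17-fold. The means were 292 ± 144 (SD, n = 3) FPKM in IgG and 295 ± 26.2 (SD, n = 3) FPKM in anti-PD-1 tumors, or 0.13 as a log2 fold change (SE 0.34, 95% interval -0.68 to 0.94, limma adjusted p = 0.898). Without IgG replicate 2 it was 0.49 and without IgG replicate 3 it was -0.19.

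Ctss (ENSMUSG00000038642, chromosome 3 from 95526786 to 95556403, plus strand) had 180, 230 and 85.5 FPKM in IgG against 139, 152 and 180 FPKM after anti-PD-1. As for Cd74, IgG replicate 2 was the highest and IgG replicate 3 the lowest tumor. The log2 fold change of Ctss was 0.04 (SE 0.36, 95% interval -0.81 to 0.88, limma adjusted p = 0.974), and it was -0.38 without IgG replicate 3.

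The H2-DM chains were steadier from tumor to tumor. H2-DMa (ENSMUSG00000037649, chromosome 17 from 34119541 to 34139101, plus strand) had 5.09, 6.98 and 4.94 FPKM in IgG against 6.36, 4.98 and 7.36 FPKM after anti-PD-1, a span of 1.49-fold. Its log2 fold change was 0.12 (SE 0.20, 95% interval -0.35 to 0.59, limma adjusted p = 0.836). H2-DMb1 (ENSMUSG00000079547, chromosome 17 from 34153072 to 34160230, plus strand) had 12.0, 20.5 and 18.3 FPKM in IgG against 14.2, 19.0 and 15.0 FPKM after anti-PD-1. The order of the tumors differed from that of the I-A chains, with IgG replicate 3 high for H2-DMb1 and lowest for H2-Ab1. The log2 fold change of H2-DMb1 was -0.05 (SE 0.23, 95% interval -0.59 to 0.49, limma adjusted p = 0.946). Brd2 overlaps H2-DMa on the other strand, and H2-DMb1 may share reads with its close paralog H2-DMb2.

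Ciita (ENSMUSG00000022504, chromosome 16 from 10480059 to 10528418, plus strand) had the lowest level of the 8 genes. It had 1.06, 1.29 and 1.62 FPKM in IgG against 0.930, 0.822 and 1.5 FPKM after anti-PD-1. Its highest tumor, IgG replicate 3, was the lowest for H2-Aa, H2-Ab1, H2-DMa, Cd74 and Ctss. The log2 fold change of Ciita was -0.16 (SE 0.21, 95% interval -0.66 to 0.34, limma adjusted p = 0.784). On the log2(FPKM + 1) scale the change of so low a gene is understated, and with 0.1 in place of 1 it was -0.29, and with voom -0.32. Between 190 and 376 reads stood behind the values of Ciita. Dexi overlaps Ciita, Mir5107 overlaps Cd74 and the pseudogene Hmgb1-ps5 overlaps Ctss, so some of their reads may not be told apart.

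**Figure D3:**
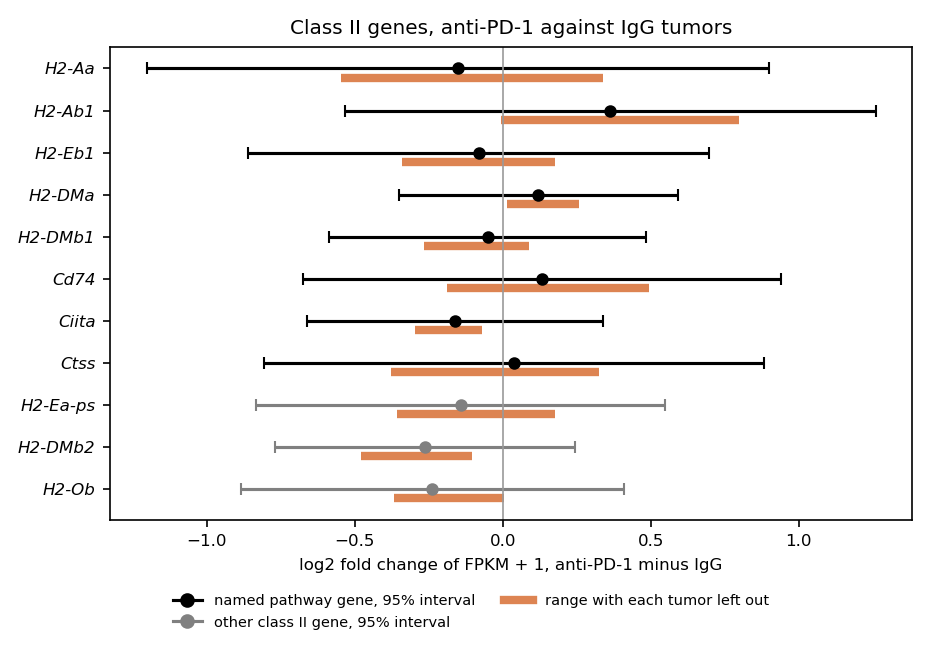
Log2 fold change of FPKM + 1 (horizontal axis, anti-PD-1 minus IgG) of the 8 class II genes (black) and 3 other class II genes (grey) with 95% intervals from limma, and in orange the range when each tumor is left out in turn. Every interval includes 0, and the 4 widest ranges are those of H2-Aa, H2-Ab1, Cd74 and Ctss.

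By mean FPKM over the 6 tumors the 8 genes stood in the order Cd74 (294), Ctss (161), H2-Ab1 (37.0), H2-DMb1 (16.5), H2-Aa (15.0), H2-DMa (5.95), H2-Eb1 (2.09) and Ciita (1.2). Cd74 was above Ctss, and Ctss above H2-Ab1, in 6 of 6 tumors. H2-DMb1 and H2-Aa did not differ beyond their spread, with H2-DMb1 above H2-Aa in 3 of 6 tumors, and H2-Eb1 was above Ciita in 5 of 6. Cd74 alone made up 55.1% of the summed FPKM of the 8 genes. The order rests on the exon lengths that the authors used. For 6 of the 8 genes the values gave whole reads at a length shorter than the merged exons of GENCODE M21, from 1485 against 1681 bases for H2-DMb1 and 1410 against 1679 bases for Cd74 to 1874 against 3798 bases for H2-Aa and 1641 against 3448 bases for H2-DMa. For Ctss (1358 bases) and Ciita (9535 bases) the lengths were the same.

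The correlation of log2(FPKM + 1) over the 6 tumors was positive for 23 of the 28 pairs among the 8 genes. Pearson's r was highest for H2-Ab1 and Cd74, with r = 0.97 (permutation p = 0.00417) and Spearman's rho = 0.94 (permutation p = 0.0167), and r was 0.86 without the 2 tumors farthest from the median of H2-Ab1. Over the 28 pairs the smallest Benjamini-Hochberg adjusted p was 0.117, so no pair passed after correction. An unadjusted permutation p under 0.05 was reached by 6 pairs, which were the 6 pairs among H2-Aa, H2-Ab1, Cd74 and Ctss. Of these, Ctss with H2-Ab1 had r = 0.86 (permutation p = 0.0319, rho = 0.83 with permutation p = 0.0583) and, without the 2 tumors farthest from the median of H2-Ab1, r = -0.21. The latter leaves 4 tumors over a narrower range of H2-Ab1, so the relation rests on IgG replicates 2 and 3 together. Without IgG replicate 2 alone r was 0.78, and over all 6 tumors with the group means taken out it was 0.90. Without the 2 tumors farthest from the median of the gene named first, r was 0.08 for Cd74 with Ctss, 0.45 for H2-Aa with H2-Ab1, 0.43 for H2-Aa with Cd74 and 0.69 for H2-Aa with Ctss, against 0.91, 0.85, 0.90 and 0.86 over all 6 tumors. Without IgG replicate 2 alone the 6 pairs had r between 0.77 and 0.97. Ciita and H2-Ab1 had r = -0.28 (permutation p = 0.586) and rho = -0.14 (permutation p = 0.803), and r was 0.24 without the 2 tumors farthest from the median of H2-Ab1.

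**Figure D4:**
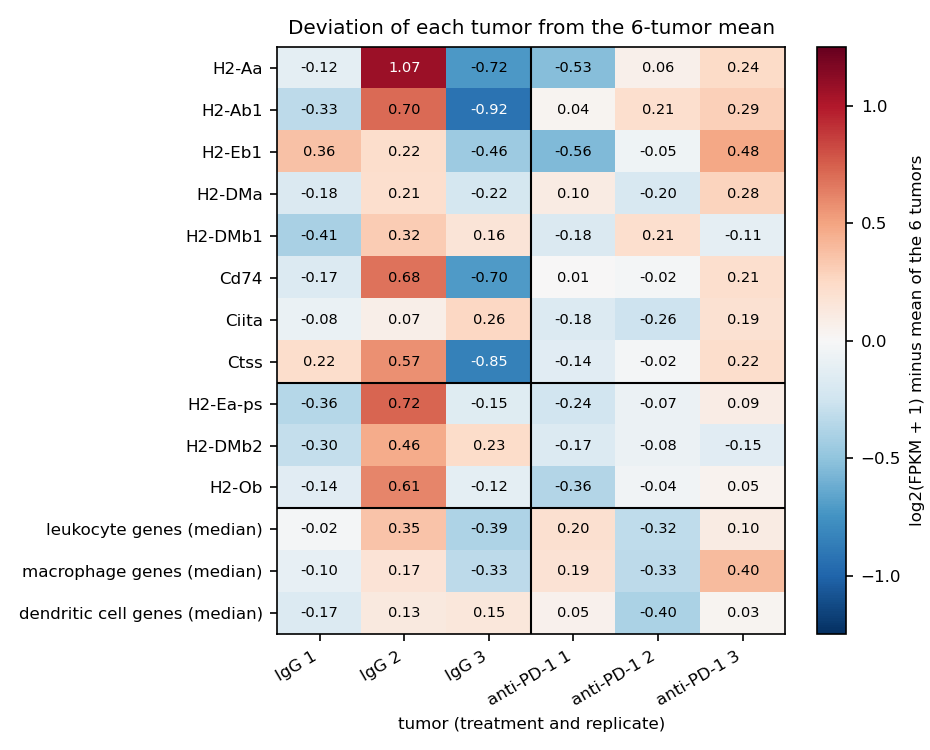
Deviation of each tumor (columns) from the mean of the 6 tumors in log2(FPKM + 1), by colour and number, for the 8 class II genes, 3 other class II genes and the median of the tested leukocyte, macrophage and dendritic cell genes (rows). IgG replicate 2 is above the mean in every class II gene, and IgG replicate 3 is below it in 8 of the 11 and above it in H2-DMb1, H2-DMb2 and Ciita.

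Of 5 other class II genes, 3 passed the filter on low FPKM, and the 3 had a lower mean in anti-PD-1 tumors with no unadjusted p under 0.05. H2-DMb2 (the second DM β chain) had 6.27, 11.3 and 9.51 FPKM in IgG against 6.90, 7.48 and 7.07 FPKM after anti-PD-1, or -0.26 as a log2 fold change (SE 0.22, limma adjusted p = 0.637). H2-Ea-ps, the I-E α chain gene that is a pseudogene in the C57BL/6 reference, had 2.98, 7.41 and 3.58 FPKM in IgG against 3.30, 3.85 and 4.42 FPKM after anti-PD-1, or -0.14 as a log2 fold change (SE 0.29, limma adjusted p = 0.867). IgG replicate 2 was the highest tumor for H2-DMb2 and H2-Ea-ps alike. The ratio of H2-DMb2 to H2-DMb1 FPKM was 0.521, 0.551 and 0.518 in IgG against 0.487, 0.394 and 0.472 after anti-PD-1 (two-sided exact permutation test, p = 0.1, the smallest possible), without overlap between the groups. Of the 11 ratios among class II genes that were computed with the other class II genes included, 2 did not overlap (18.2%), a share near the 18.1% of single genes.

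H2-Oa and H2-Ob encode H2-DO, an inhibitor of H2-DM that is typical of B cells. H2-Ob had 0.562, 1.63 and 0.585 FPKM in IgG against 0.335, 0.667 and 0.774 FPKM after anti-PD-1, or -0.24 as a log2 fold change (limma adjusted p = 0.751). With 0.1 in place of 1 as the pseudocount it was -0.47, and with voom -0.56. H2-Oa was too low to be tested. It had 58 reads in IgG replicate 2 and between 2 and 9 reads in each of the other tumors. H2-Eb2 was listed at 0 in 4 tumors and had 0.189 FPKM in IgG replicate 2.

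Class II transcripts were next set beside markers of the cells that carry them. In bulk tumors, fewer cells of a type and less RNA per cell cannot be told apart. Of 9 B cell genes, 8 were highest in IgG replicate 2, and their summed level was 4.35 FPKM there against 0.414 to 1.28 FPKM in the other tumors. None of the 9 B cell genes was high enough to be tested, and 8 of 9 had a lower mean log2(FPKM + 1) in anti-PD-1 tumors. The groups did not overlap for 1 of the 9, Fcer2a, named after its values were seen, with 10, 13 and 7 reads in IgG against 2, 4 and 1 reads after anti-PD-1. Of all genes tested, 8.75% were lower without overlap. The 2 most abundant B cell genes, Cd79b and Cd79a, had groups that overlapped. Cd79b had 2, 44 and 4 reads in IgG against 19, 5 and 6 reads after anti-PD-1. Cd79a had 3, 49 and 9 reads in IgG against 1, 0 and 18 reads after anti-PD-1. All 9 were above 0 in IgG replicate 2, whereas between 1 and 4 of them were at 0 in each of the other tumors. Of 9 T cell genes, 5 were highest in IgG replicate 2, with sums of 2.48 to 6.04 FPKM in IgG and 2.69 to 4.99 FPKM in anti-PD-1 tumors. The mean of log2(FPKM + 1) was lower in anti-PD-1 tumors for 7 of the 9 T cell genes and higher for Foxp3 and Lag3. Cd3d, a chain of the T cell receptor complex named after its values were seen, had 12, 46 and 9 reads in IgG against 3, 0 and 3 reads after anti-PD-1. It was the only 1 of the 9 without overlap, and 8.75% of all genes tested were lower without overlap. Cd3d, Cd3e and Cd3g lie together on chromosome 9, where 82.3% of tested genes were lower. Cd4 had 35, 62 and 34 reads in IgG against 17, 6 and 94 reads after anti-PD-1, with overlap. Of the 9 only Lag3, an inhibitory receptor, was high enough to be tested, and it was 0.48 higher on the log2 scale (limma adjusted p = 0.604), between 0.24 and 0.82 with single tumors left out, 0.85 with a pseudocount of 0.1 and 0.93 with voom. Ifng, the gene of interferon-γ, had 13 reads in IgG replicate 2, 1 read in IgG replicate 1 and none in the other tumors. Of the lymph node stroma genes, Glycam1, which is also expressed in the mammary gland, had 698 reads in IgG replicate 2, 244 in anti-PD-1 replicate 1 and no more than 32 in any other tumor. Cxcl13 was also highest in IgG replicate 2, at 2.46 FPKM, while Ccl19 and Ccl21a were at 0 in all 6 tumors. Madcam1 had no reads in the IgG tumors or in anti-PD-1 replicate 1, and 2 reads in each of anti-PD-1 replicates 2 and 3. The part of these cells in the class II levels of IgG replicate 2 was not tested.

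The median of the 10 macrophage genes was 0.33 on the log2 scale, and 10 of 10 had a higher mean in anti-PD-1 tumors, where 50.8% of all genes tested did. The 10 include Adgre1 (F4/80) and Fcgr1, at 0.0055 and 0.0019 on the log2 scale, and the median lay between 0.12 (without IgG replicate 3) and 0.48 when single tumors were left out. In those fits Adgre1, Csf1r and Fcgr1 went as low as -0.16, -0.14 and -0.15. C1qa, C1qb and C1qc lie side by side on chromosome 4, so the 10 are not separate observations. Only Cd68, a lysosomal protein of macrophages, had an unadjusted p under 0.05, as did 6.22% of all genes tested in this direction. It had 18.3, 15.2 and 13.8 FPKM in IgG against 22.1, 30.7 and 29.3 FPKM after anti-PD-1, or 0.76 as a log2 fold change (SE 0.19, limma adjusted p = 0.344). The groups did not overlap in Cd68, which held for 9.3% of all genes in this direction. The summed level of the 10 genes, at 221 to 392 FPKM in IgG and 290 to 464 FPKM in anti-PD-1 tumors, did overlap, and C1qa, which encodes a chain of complement C1q, was the most abundant of them. Anti-PD-1 replicate 2 had the highest Cd68 but the lowest sum of the anti-PD-1 tumors, so Cd68 departed from the sum. Among the anti-PD-1 tumors, Mertk was not lowest in replicate 2 either. All other genes of the list, among them Adgre1, Csf1r and C1qa, were lowest there.

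Of 10 dendritic cell genes 5 were tested, with a median of -0.02 on the log2 scale and none at an unadjusted p under 0.05. Their sum was 11.8 to 13.5 FPKM in IgG and 7.99 to 14.5 FPKM in anti-PD-1 tumors. The integrin Itgax, which encodes CD11c, and the actin-bundling gene Fscn1 were the most abundant of them and carried most of the sum. Over all 10 genes, 8 had a lower mean log2(FPKM + 1) in anti-PD-1 tumors, among them all 5 that were too low to be tested. Of these 5, Zbtb46, a transcription factor of conventional dendritic cells named after its values were seen, had 0.374, 0.994 and 0.636 FPKM in IgG against 0.174, 0.237 and 0.287 FPKM after anti-PD-1. It was the only 1 of the 10 whose groups did not overlap with anti-PD-1 lower, as in 8.75% of all genes tested. The 4 general leukocyte genes, Ptprc, Coro1a, Laptm5 and Cd53, had a median of 0.03 on the log2 scale and sums of 25.0 to 43.9 FPKM in IgG and 25.7 to 39.3 FPKM in anti-PD-1 tumors. Their median lay between -0.15 and 0.15 with single tumors left out.

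Each class II gene was also taken relative to the mean log2 level of the marker genes in its own tumor. Relative to leukocyte genes the groups overlapped for 8 of 8 class II genes, with differences between -0.16 and 0.36 on the log2 scale. Relative to the 10 macrophage genes 7 of 8 class II genes had a lower mean in anti-PD-1 tumors, with differences between -0.47 and 0.06. The same marker mean was subtracted from every gene, which took Ciita from -0.16 to -0.47 and Cd74 from 0.13 to -0.18, so the count of 7 carries 1 shared shift and is not a separate observation on each class II gene. The groups overlapped for 7 of 8 class II genes. The exception was Ciita, at -2.60, -2.62 and -2.06 in IgG against -3.07, -2.71 and -2.91 after anti-PD-1 (two-sided exact permutation test, p = 0.1). Relative to dendritic cell genes the exception was H2-DMa, which was 0.25 higher in anti-PD-1 tumors without overlap (exact permutation test, p = 0.1). Relative to B cell genes the groups overlapped for 8 of 8 class II genes. Each exception is 1 of 8 genes, where 18.1% of single genes did not overlap.

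Of 11 genes that process antigen for class II, all tested, 5 had a higher and 6 a lower mean after anti-PD-1, and their median fold change was -0.05 on the log2 scale. An unadjusted p under 0.05 was reached by 2, both lower, where 6.05% of all genes tested were called lower. Sppl2a, the intramembrane protease that removes the last stub of Cd74, had 35.9, 50.2 and 41.4 FPKM in IgG against 25.8, 26.5 and 28.5 FPKM after anti-PD-1. The groups did not overlap, and the log2 fold change of Sppl2a was -0.62 (SE 0.17, 95% interval -1.02 to -0.22, limma adjusted p = 0.344). Whichever tumor was left out, it lay between -0.74 and -0.51. The lysosomal protease Ctsh had 51.8, 84.8 and 57.3 FPKM in IgG against 49.7, 37.1 and 38.7 FPKM after anti-PD-1, or -0.59 as a log2 fold change (limma adjusted p = 0.387), which was -0.39 without IgG replicate 2. Ctsh lies on chromosome 9, where the median log2 fold change of 798 tested genes was -0.36. Of the abundant lysosomal proteases, Ctsd was at -0.16 (limma adjusted p = 0.797) and Ctsb at 0.20 (limma adjusted p = 0.748) on the log2 scale. March1, the ubiquitin ligase that removes class II from the surface, had 0.801 ± 0.327 (SD, n = 3) FPKM in IgG and 0.861 ± 0.240 (SD, n = 3) FPKM in anti-PD-1 tumors.

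Of 15 genes that act on Ciita or on class II promoters, 14 were tested, 5 with a higher and 9 with a lower mean after anti-PD-1, and the median was -0.07 on the log2 scale. With single tumors left out this median lay between -0.14 and 0.035. The RFX subunits that bind the X box, Rfx5, Rfxap and Rfxank, had log2 fold changes of -0.17, 0.12 and 0.03. For the NF-Y subunits that bind the Y box, Nfya, Nfyb and Nfyc, they were 0.38, 0.11 and -0.34, none with an unadjusted p under 0.05. Jak1, a kinase of the interferon-γ receptor, was the only gene of the 15 at an unadjusted p under 0.05, where 6.05% of all genes tested were called lower. It had 28.9, 47.3 and 43.8 FPKM in IgG against 21.2, 18.9 and 20.9 FPKM after anti-PD-1, and every anti-PD-1 tumor lay below every IgG tumor, as in 8.75% of all genes tested. The log2 fold change of Jak1 was -0.91 (SE 0.21, 95% interval -1.40 to -0.42, limma adjusted p = 0.344). Jak1 and Nfyc lie on chromosome 4, where the median log2 fold change of 926 tested genes was -0.40 and 83.6% were lower. The part of that chromosome-wide shift in the values of Jak1 and Nfyc was not tested. On chromosome 17, which holds 5 of the 8 class II genes, the median was 0.07. Irf1, a transcription factor that relays interferon-γ to Ciita, had a log2 fold change of -0.12. The costimulatory genes Cd86, Cd40 and Icosl, 3 of 4 on their list that were tested, had log2 fold changes from -0.23 to -0.04, none with an unadjusted p under 0.05.

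The 10 protein-coding genes whose log2 values over the 6 tumors were most like the mean of the standardized values of the 8 class II genes were Ppfia4, Tlr1, Sgpp1, BC147527, mt-Nd6, Ebag9, Wfdc18, Gpnmb, Hps3 and Bet1. Their Pearson r lay between 0.967 and 0.991, and 50 of 12401 genes (0.403%) reached an r of 0.9. Tlr1, a receptor for bacterial lipopeptides, had 1.00, 2.39 and 0.771 FPKM in IgG against 1.13, 1.22 and 1.90 FPKM after anti-PD-1. IgG replicate 2 and anti-PD-1 replicate 3 were the 2 highest tumors for Tlr1, as they were for H2-Aa, H2-Ab1 and Cd74. Tlr1 was picked for its likeness to the mean of the 8 genes, so these shared tumors follow from that choice and are not a separate result.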

How the data were processed

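RNAseq of 6 mammary tumor samples was analyzed from FPKM values that the authors deposited per Ensembl gene ID. By the methods of the paper and the submitters' processing notes, the authors used FastQC 0.11.9, Cutadapt 3.5, a Bowtie2 2.4.1 index of Ensembl mm10, RSEM 1.3.1 and DESeq2 1.36.0 in R 4.1. How the FPKM was made is not given in the sources used here. mm10 is a C57BL/6 genome and the mice were FVB, and its part in the counts of the polymorphic H2 genes was not tested.

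Gene symbols and coordinates are those of GENCODE M21 (GRCm38), which matched 54495 of the 54532 IDs. Reads were recovered by finding the step between values times exon length (27869 of 28732 detected IDs were whole at the annotated length, within 0.1 of a read). Where the annotated length gave no whole reads, the smallest length from 0.3 to 2 times as long that did, within 0.0001, was used, and multiples of it would fit too. Totals were 22261435 to 25254944 reads per tumor.

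FPKM values were divided by median-of-ratios factors (0.996 to 1.00), 1 was added and log2 was taken. Testing covered the 15069 genes whose FPKM averaged 0.5 or more, and was done with limma 3.58.1 in R 4.3.3 (eBayes with a trend, two-sided, Benjamini-Hochberg over all genes tested). Single values were compared by exact permutation tests, which cannot go below p = 0.1 for 3 tumors against 3, and correlations over all 720 orders of the tumors. On simulated reads for 14413 genes, 192 of 200 genes changed by a log2 fold of 2 (96%) were recovered with 12 false positives, and of the unchanged genes 4.62% fell under an unadjusted p of 0.05. Python 3.11.15, numpy 2.4.6, pandas 2.3.3, scipy 1.17.1 and matplotlib 3.10.9 were used. No 2 tumors held identical values, and Pearson r between tumors across genes, which are not independent, was 0.957 to 0.982.

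The genes and gene lists were chosen with earlier results of these data known. Named genes were to be the 8 class II genes, 5 other class II genes, those of each further list at an unadjusted p under 0.05 or else the 2 most abundant, and the 10 genes most like the 8 over the tumors. This rule was not kept for every list. Fcer2a, Cd3d and Zbtb46 were named after their values were seen, and others are named as members of a list. Alternatives were quantile normalization, unscaled FPKM, a pseudocount of 0.1, dropping the filter or raising it to 2, no trend in eBayes, a replicate block and omission of single tumors. A voom fit of the recovered reads was chosen after seeing the data.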

Additional observations from a re-analysis of the deposited data

How the results depend on the processing

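None of the 8 class II genes had a limma adjusted p under 0.05 under any of the alternatives in which it was tested, and the smallest that any reached was 0.539. Ciita was not tested with a mean FPKM of 2 as the filter. Ctss turned to -0.095 with quantile normalization. Leaving out each tumor in turn moved the number of the 8 with a higher mean in anti-PD-1 tumors between 2 and 7 and the number at an unadjusted p under 0.05 between 0 and 1. In those fits the log2 fold change lay between -0.55 and 0.34 for H2-Aa, between -0.0047 and 0.80 for H2-Ab1, between -0.34 and 0.18 for H2-Eb1, between -0.27 and 0.088 for H2-DMb1, between -0.19 and 0.49 for Cd74, between -0.38 and 0.33 for Ctss, between -0.36 and 0.18 for H2-Ea-ps and between -0.37 and 0.0051 for H2-Ob. It lay between 0.014 (without anti-PD-1 replicate 3) and 0.26 for H2-DMa, between -0.30 and -0.069 for Ciita and between -0.48 and -0.10 for H2-DMb2. The list medians lay between -0.11 and 0.18 for processing genes, -0.39 and 0.33 for dendritic cell genes, -0.24 and 0.035 for costimulatory genes, 0.10 and 0.39 for epithelial genes and -0.033 and 0.58 for stromal and vessel genes, which were 0.64 with all tumors and -0.020 with voom on recovered reads. Over all genes, between 0 and 12 (12 without IgG replicate 1, 1 without IgG replicate 3) had an adjusted p under 0.05 and between 954 (without IgG replicate 2) and 2679 an unadjusted p under 0.05, against 1848 with all tumors and 1159 without anti-PD-1 replicate 3. The causes were not tested.

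Same-numbered tumors did not deviate together (r of deviations from the group means -0.16, 0.01 and 0.19 for numbers 1 to 3), and nothing in the labels pairs them. With the replicate number as a block, 1725 genes had an unadjusted p under 0.05, none an adjusted one, and the median log2 fold change of the 8 genes was -0.01 as without the block. Further lists gave medians of -0.26 for lymph node stroma genes (2 tested, between -0.76 and 0.58 with single tumors left out, 0.58 without IgG replicate 2) and 0.34 for epithelial genes (7 tested).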
